A study of Mus musculus with 4 samples.

Results

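The genes Chat, Slc5a7, Slc18a3, Ache and Ngfr, which serve as markers of cholinergic neurons, were followed through coronal sections of mouse forebrain. They were taken by symbol from the rows of the deposited count table, where all 5 were found among 19465 genes. The sections came from 2 wild-type mice and 2 mice heterozygous for Celsr3, a gene of an atypical cadherin of the planar cell polarity family, and no mouse was treated. The age and strain of the mice and the design of the Celsr3 allele were not given in the sources used here. The brains had been trimmed so that the striatum showed in the sections, fixed in formalin, embedded in paraffin and read with probe-based Visium CytAssist, version 2, which counts RNA in spots that can each hold several cells.

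The count table holds 12602 spots in 4 barcode sets, told apart only by the ending of each spot's barcode, and none of the 4 endings matches the name of a mouse. The sets are therefore given as set 1 to set 4, each on its own, and no comparison of genotype was made. The 4 sets have 3055, 2808, 3445 and 3294 spots, with medians of 52481, 38181.5, 44972 and 26444.5 counts per spot, so that set 4 was the shallowest. Of 4744 distinct barcodes, 1613 occur in all 4 sets. Levels are given as CPM, counts per 1000000 counts. Celsr3 itself was at 31.7, 46.8, 26.0 and 47.2 CPM in sets 1 to 4 and was not used to assign a set to a mouse. All intervals below are exact 95% intervals that cover counting error only, and differences between sets have no replicate check. No p-values are given, since spots of a section are not replicates.

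Cholinergic neurons make acetylcholine from choline and acetyl-CoA with choline acetyltransferase, the product of Chat. Slc5a7 encodes the high-affinity choline transporter that takes choline back up at the terminal, and Slc18a3 the vesicular transporter that loads acetylcholine into vesicles. Ache encodes acetylcholinesterase, which breaks the transmitter down and is also made by many neurons that receive it. Ngfr encodes the low-affinity neurotrophin receptor, a classic marker of the basal forebrain projection neurons that innervate cortex and hippocampus. The striatum, by contrast, holds cholinergic interneurons that are few, large and scattered among the spiny projection neurons. Chat, Slc5a7 and Slc18a3, the 3 genes that define the cholinergic phenotype, are referred to together as the trio.

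Slc18a3 lies inside the Chat gene in the RefSeq annotation, on the same strand, with its start 1059 bases downstream of the Chat start, an arrangement known as the cholinergic gene locus. Slc5a7 is on another chromosome. Because Chat and Slc18a3 overlap, counts of 1 could be assigned to the other if a probe lay in shared sequence, and the probe positions were not given in the sources used here. Whether promoter sequence has a part in the levels below was not tested. The 250 bases before each of the 3 starts are shown as a description of the genes that define the cholinergic phenotype. They are on the minus strand of GRCm38.p6, at chr14:32465910-32466159 for Chat, chr14:32464851-32465100 for Slc18a3 and chr17:54299035-54299284 for Slc5a7, and are written from 5′ to 3′ from RefSeq. Capitals mark CGTCA, the core of a cAMP response element, and CCGCCC, the reverse complement of the GC box GGGCGG, both searched on both strands; the marked matches do not overlap.
Chat: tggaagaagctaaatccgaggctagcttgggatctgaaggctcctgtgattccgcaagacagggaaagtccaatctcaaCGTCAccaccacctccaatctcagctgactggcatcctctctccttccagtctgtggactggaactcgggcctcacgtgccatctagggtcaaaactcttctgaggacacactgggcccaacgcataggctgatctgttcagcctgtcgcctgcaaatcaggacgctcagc
Slc18a3: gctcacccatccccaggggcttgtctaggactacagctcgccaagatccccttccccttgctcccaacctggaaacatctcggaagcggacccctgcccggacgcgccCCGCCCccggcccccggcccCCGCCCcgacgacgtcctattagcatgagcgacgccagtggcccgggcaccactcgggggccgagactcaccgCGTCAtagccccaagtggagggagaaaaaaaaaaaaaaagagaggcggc
Slc5a7: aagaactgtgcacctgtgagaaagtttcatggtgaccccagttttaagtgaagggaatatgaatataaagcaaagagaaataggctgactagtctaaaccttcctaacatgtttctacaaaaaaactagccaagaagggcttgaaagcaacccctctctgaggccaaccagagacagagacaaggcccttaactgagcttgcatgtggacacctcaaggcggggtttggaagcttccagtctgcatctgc
The CGTCA motif occurs once in the Chat window, starting 171 bases before the start, and once in the Slc18a3 window, at 49 bases before the start. It was not found in the Slc5a7 window. For comparison, 17.8% of 32851 promoter windows of this length hold it on either strand. The GC box occurs 2 times in the Slc18a3 window and in neither of the others, against 32.7% of all windows. G and C bases made up 54.8% of the Chat window, 66.0% of that of Slc18a3 and 45.6% of that of Slc5a7, with a median of 52.4% over all windows. A match of letters is a description of the window and not a mapped site.

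To place the genes, spots were grouped into 27 clusters from genes that exclude the 5 members and their companion genes. Clusters 0, 5 and 20 met the rule for striatum, with at least 3 of 13 striatal marker genes, such as Rgs9, Adora2a and Penk, among their 10 leading genes. Together they hold 577, 618, 727 and 418 spots in sets 1 to 4. Different clusters make up this striatal area in different sets: cluster 0 gave 559 spots of set 1 and 711 of set 3, cluster 5 gave 591 of set 2, and cluster 20 gave 349 of set 4. Clusters 14 and 25 did not meet the striatal rule and count as other spots below. Cluster 14 had the markers Penk and Tac1 among its 10 leading genes, and cluster 25 had 3 striatal markers among its 20 leading genes. No cluster met the rule for a basal forebrain area. The upper 5% of spots outside the striatum by the summed CPM of Lhx8 and Gbx1 were used in its place, which is 124, 110, 136 and 144 spots. Both genes mark basal forebrain cholinergic neurons, so the spots, called basal forebrain marker spots here, were chosen for cells that should carry the members, and these 2 genes are not results there. In set 1 the last spot inside had 77.0 CPM of the 2 genes and the first outside 76.4, and in set 4 these values were 115.4 and 113.8 CPM. From 74.5% to 92.7% of the marker spots lay in clusters 3 and 6, led by Tac2, Pmch and Elfn1 and by Etnppl, Agt and Padi2.

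In the striatal area, the trio was present at a low level in every set. Chat was at 15.4, 19.8, 15.3 and 13.1 CPM in sets 1 to 4, from 442, 430, 461 and 135 counts. Slc18a3 was at 17.3, 21.5, 18.4 and 12.3 CPM. Both genes were highest in set 2 and lowest in set 4, and neither spread over more than 1.74-fold between any pair of sets. Slc5a7, the choline transporter gene, ran from 11.4 CPM in set 1 and 13.8 CPM in set 3 to 3.40 CPM in set 2 and 2.14 CPM in set 4.

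Relative to the rest of its section, the striatal area had 3.68-fold more Chat in set 1 (interval 3.25 to 4.17) and 3.29-fold more in set 2 (2.89 to 3.75). The same ratio of Chat was 3.48 in set 3 (3.07 to 3.94) and 2.06 in set 4 (1.69 to 2.498). Slc18a3 was 1.67 to 3.01-fold higher, above counting error in all 4 sets. Slc5a7 was 2.41, 1.73 and 3.09-fold higher in sets 1 to 3, whereas its ratio of 0.967 in set 4 was within counting error (0.591 to 1.51). The other spots include the basal forebrain marker spots, where all 3 genes were higher still. They also include clusters 14 and 25, which held striatal markers and had 12.3 and 2.43 CPM of Chat pooled over sets.

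Ache and Ngfr, unlike Chat and Slc18a3, were lower in the striatal area than in all other spots. Ache, at 56.5, 71.8, 51.7 and 64.7 CPM there, was below all other spots in all 4 sets, at 0.546 to 0.814 of their level. Those spots are mixed: pooled over sets, the striatal clusters 5, 20 and 0 had 71.1, 61.1 and 54.9 CPM of Ache, at ranks 11, 12 and 18 of the 27 clusters. Ngfr was at 1.08, 1.33, 0.830 and 3.99 CPM, which is 0.106 to 0.255 of the level in all other spots. Those include the basal forebrain marker spots, which held 42.9% to 52.8% of the Ngfr counts of a set. In the spots outside both areas Ngfr was at 2.43, 6.96, 3.05 and 8.06 CPM. These still include spots of clusters 3 and 6, where Ngfr pooled over sets was at 75.6 and 60.8 CPM. The striatal clusters 20, 5 and 0 had 2.15, 1.42 and 1.26 CPM of Ngfr pooled over sets, at ranks 12, 17 and 19 of the 27 clusters. Low Ngfr was thus not particular to the striatal area. Of the 5 members, Chat was the only gene at least 2-fold higher in all 4 sets and Ngfr the only gene at least 2-fold lower. Over the 13638 genes whose mean reached 1 CPM, 3.04% were 2-fold higher and 9.01% 2-fold lower in all 4 sets. The median ratio of the 5 members was 2.07, against 0.915 over all genes. Fewer cells of a type and less RNA per cell cannot be told apart in such sums.

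Of the 3 areas (striatal area, basal forebrain marker spots and all remaining spots), the marker spots held the highest levels of all 5 members. Chat was at 48.8, 50.9, 68.7 and 90.3 CPM in sets 1 to 4, Slc18a3 at 93.4, 58.2, 92.5 and 93.3 CPM, and Slc5a7 at 54.0, 14.6, 67.5 and 21.6 CPM. Chat was highest in set 4, where its striatal level was lowest. Ache reached 216.2, 295.8, 214.7 and 325.6 CPM.

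Ngfr showed the widest range among sets in these spots, from 50.8 CPM in set 1 through 96.5 CPM in set 3 and 124.2 CPM in set 2 to 243.5 CPM in set 4, with intervals that do not overlap. The marker spots make up 3.92% to 4.37% of the spots of a set and held 42.9% to 52.8% of its Ngfr counts, but 22.7% to 42.7% of its Chat counts and 7.46% to 13.5% of its Ache counts.

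All 5 members were at least 2-fold higher in the marker spots than in all other spots in all 4 sets, against 0.922% of 13769 genes, and none was 2-fold lower, against 3.32%. Chat was 7.25 to 21.3-fold, Slc5a7 8.29 to 15.4-fold and Slc18a3 6.94 to 18.8-fold higher. The ratio of Ngfr was 21.4 to 36.6 and that of Ache 2.48 to 3.87. The spots were picked by other genes of the same neurons, so these ratios describe levels beside Lhx8 and Gbx1 and not a region outlined on the tissue. The median ratio of the 5 members was 13.4, and that of all genes 1.02. Under 4 other clusterings a thalamic cluster met the area rule instead, and the trio was lower there than elsewhere.

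Set directly against the striatal area, the marker spots separated Ngfr from the trio. Ngfr was 46.9, 93.1, 116.3 and 61.1-fold higher in sets 1 to 4, whereas the summed trio was 4.45, 2.77, 4.82 and 7.43-fold higher. In each set the lower bound of the Ngfr ratio (32.3, 64.1, 77.8 and 44.6) was above the upper bound of the trio ratio (4.83, 3.08, 5.22 and 8.58). All 5 members were at least 2-fold higher in all sets, against 8.54% of 13503 genes, and none was 2-fold lower, against 5.25%.

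**Figure D1:**
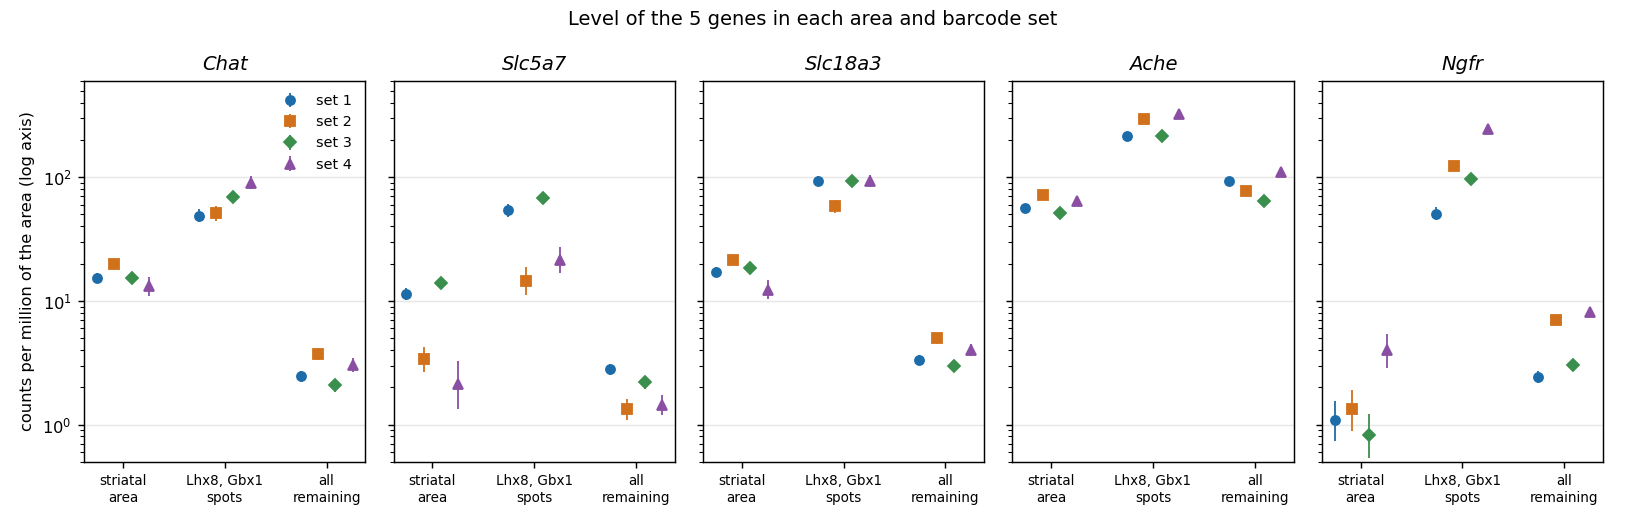
Level of each of the 5 genes (CPM, log axis) in the striatal area, in the basal forebrain marker spots chosen by Lhx8 and Gbx1, and in all remaining spots; each point is 1 barcode set and each bar its exact 95% Poisson interval. Of the 3 areas, every gene is highest in the marker spots, Ngfr is at 0.830 to 3.99 CPM in the striatal area against 50.8 to 243.5 CPM in the marker spots, and Slc5a7 in sets 2 and 4 lies below sets 1 and 3 in all 3 areas.

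Companion genes, known from cholinergic neurons or from acetylcholine handling, differed between the areas. Of 25 companion genes measured, 3 were at least 2-fold higher in the striatal area in all sets: Prima1, which encodes the membrane anchor of acetylcholinesterase (3.46 to 6.33-fold), Tacr1, the receptor of substance P (3.26 to 3.61-fold), and Slc17a8, the vesicular glutamate transporter that striatal cholinergic interneurons carry (2.86 to 3.38-fold). Over all genes 3.04% were 2-fold higher there. A further 5 companions were at least 2-fold lower in all sets, against 9.01% of all genes: Gbx1, Chrm2, Slc18a2 and the vesicular glutamate transporter genes Slc17a6 and Slc17a7, with ratios of 0.00557 to 0.466. In the marker spots 8 were 2-fold higher, against 0.922% of all genes, of which Lhx8 and Gbx1 had chosen the spots. Slc17a7 was 2-fold lower (0.00652 to 0.0280), against 3.32% of all genes. The others were Ecel1 (3.90 to 8.10-fold), Prima1 (2.44 to 7.13-fold), Slc18a2, the vesicular monoamine transporter gene (2.42 to 5.86-fold), Tacr1 (2.28 to 4.41-fold), Acly (2.36 to 3.52-fold) and Slc25a1 (2.39 to 3.43-fold). Acly makes cytosolic acetyl-CoA from citrate, and Slc25a1 exports the citrate from mitochondria. The choline kinase genes Chka and Chkb and the choline transporter-like genes Slc44a1 and Slc44a2 did not reach 2-fold in all sets in either comparison. The median ratio of the 25 genes was 1.002 in the striatal area and 1.73 in the marker spots, the last with the 2 genes that chose the spots included. The shares over all genes leave out those that averaged below 1 CPM over both sides of a comparison. No such filter was put on the companions, so their counts and these shares are not fully alike. Gbx1 and Slc17a6 averaged below 1 CPM in the striatal area. They could pass the filter there only through the other spots, where they were higher.

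Slc17a8 was not higher in the marker spots than in the striatum in any set, and was lower beyond counting error in 2 of the 4. It stood at 12.0, 18.7, 12.8 and 14.6 CPM in the striatal area and at 9.79, 7.28, 6.79 and 12.4 CPM in the marker spots, although Chat was at least 2.58-fold higher in the marker spots in every set. Chrm2, the muscarinic receptor that acts as an autoreceptor on cholinergic terminals, was at 3.89 to 6.74 CPM in the striatal area and 17.0 to 53.9 CPM in the marker spots. Isl1, a transcription factor that works with Lhx8 in striatal cholinergic neurons and is also used by spiny neurons, was higher in the striatal area, by 1.90 to 2.26-fold. The vesicular glutamate transporter gene Slc17a7, which marks cortical excitatory neurons, was at 39.7 to 82.3 CPM in the striatal area and at 1339 to 1758 CPM in all remaining spots.

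Across the 27 clusters, the trio was concentrated in few of them. Pooled over sets, Chat was highest in cluster 3 with 38.6 CPM (36.3 to 41.0) and in cluster 6 with 35.7 CPM (32.9 to 38.8), whose intervals overlap. The striatal clusters 5 and 0 had 19.97 CPM (18.2 to 21.9) and 15.5 CPM (14.5 to 16.6). These pooled values mix sets unequally, since 591 of the 631 spots of cluster 5 are from set 2, the set with the highest Chat level over the whole section (8.74 CPM). Within set 2 alone cluster 0 was at 23.6 CPM (14.4 to 36.5, from 27 spots) and cluster 5 at 19.6 CPM (17.8 to 21.6), with intervals that overlap. Cluster 14, led by Pdyn, Wfs1 and Strip2, had 12.3 CPM (10.5 to 14.3) and cluster 20 had 10.8 CPM (8.71 to 13.2), with intervals that overlap. The clusters outside the striatal area are singled out after their values were seen. Within cluster 6 the sets ranged from 18.1 to 61.3 CPM of Chat, so its level depended on the set. In cluster 21, led by the myelin genes Cldn11, Mag and Fa2h, Chat was at 10.6, 7.21 and 11.5 CPM in sets 1, 3 and 4, and had no count in 51 spots of set 2, where 3 counts would be 2.97 CPM. Ngfr was at 9.15, 2.97, 6.01 and 29.3 CPM in sets 1 to 4 there, so that its pooled level comes largely from set 4.

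Chat was lowest in cluster 2, led by Trbc2, Myl4 and Vxn, with 0.239 CPM, and in cluster 4, led by Fezf2, with 0.257 CPM. Cluster 7, led by Vip and holding markers of the upper cortical layers, had 0.840 CPM of Chat, 0.570 CPM of Slc5a7 and 1.11 CPM of Slc18a3. Clusters 2, 4 and 7 had 45.2, 56.0 and 33.9 CPM of Ache.

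Ache departed from the trio in several deep clusters. It was at 185.7 CPM in cluster 1, led by Avp, Oxt and Trh of the hypothalamus, where Chat was at 1.06 CPM. The thalamic cluster 9, led by Tcf7l2, Lhx9 and Gbx2, had 152.0 CPM of Ache and 0.535 CPM of Chat, with Chat at 0.151 CPM in set 1 and 1.01 CPM in set 4. Cluster 26, led by Pvalb and Six3, has spots in sets 1 and 4 alone. Its Ache level was 169.1 and 199.1 CPM there, whereas Chat was at 0.435 CPM in set 1, from 2 counts, and at 6.22 CPM in set 4. For comparison, Ache was at 239.7 CPM in cluster 3 and 195.3 CPM in cluster 6. High Ache levels were thus also found in clusters 1 and 9 and, in set 1, cluster 26, with little Chat.

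**Figure D2:**
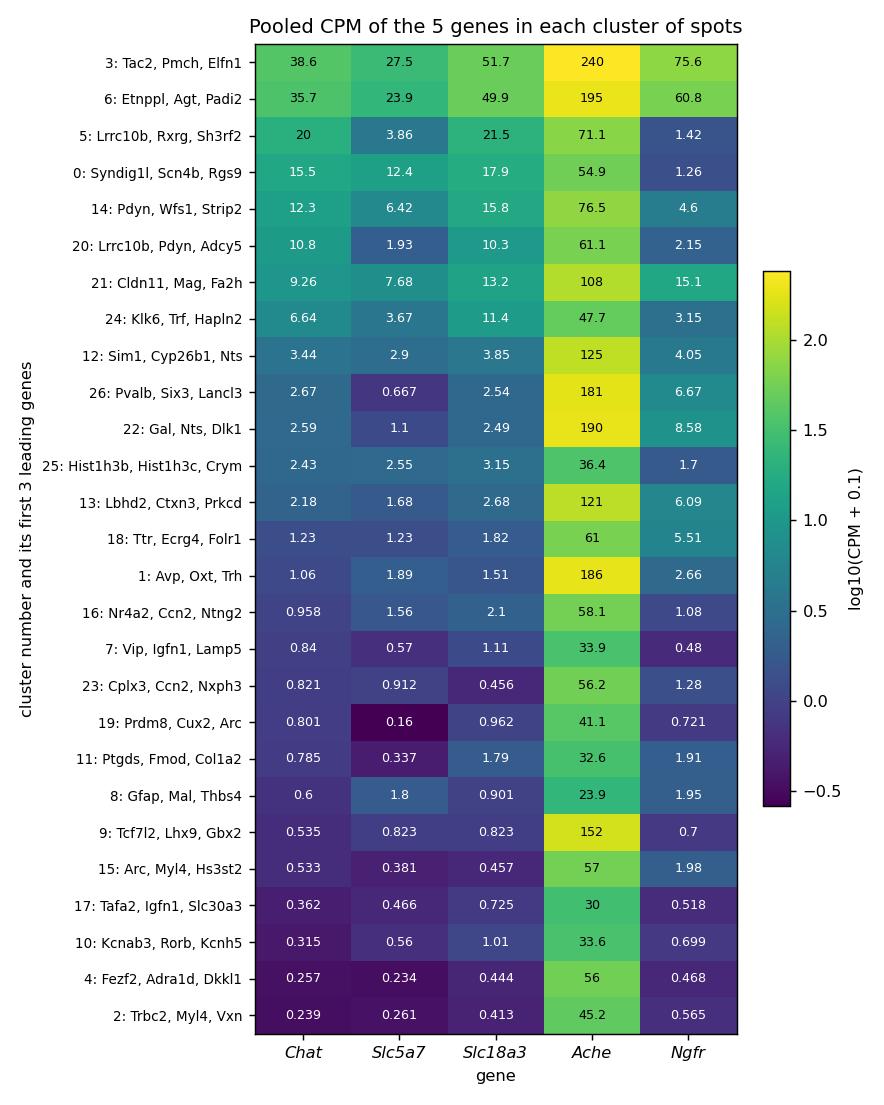
Pooled CPM of the 5 genes (columns) in the 27 clusters of spots (rows, ordered by Chat and labelled with their first 3 leading genes); colour is log10(CPM + 0.1) and the printed values are CPM. Chat, Slc5a7 and Slc18a3 are highest in clusters 3 and 6, while Ache is also at 152.0 to 189.7 CPM in clusters 1, 9, 22 and 26, where pooled Chat is at 0.535 to 2.67 CPM (in cluster 26, 0.435 CPM in set 1 and 6.22 CPM in set 4).

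Over 82 sums of at least 20 spots, 1 for each cluster and set, the genes most like each member were taken from 13982 genes by the Pearson correlation of log2(CPM + 1). For Chat the closest gene was Slc18a3 (r = 0.95), followed by Lhx8 (0.86) and Slc5a7 (0.84). Slc5a7 was closest to Chat (0.84) and Slc18a3 (0.81). Ngfr was closest to Gbx1 (0.85), Slc25a1 (0.76), Lhx8 (0.76), Gm5868 (0.74) and Chpt1 (0.74), with Chat at rank 8. Ache was closest to Ufsp1 (0.90), Sdha (0.89), B630019K06Rik (0.87), Lhfpl5 (0.86) and Smim17 (0.86), with Chat at rank 595 (0.57). Ufsp1, a protease gene, is the direct neighbour of Ache in the annotation, beginning 203 bases after its end. Whether the probes of both genes read 1 transcript was not tested. Sdha encodes a subunit of mitochondrial succinate dehydrogenase. The sums share sections and depth, and the values are descriptions.

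The striatal counts of the trio were unevenly spread over spots. At 20000 counts per spot, leaving out 1, 9, 3 and 84 shallower spots of sets 1 to 4, 34.5%, 39.4%, 43.6% and 27.2% of striatal spots had a count of the trio. Without thinning the shares were 52.5%, 53.1%, 57.6% and 28.7%. For comparison, the thinned shares of spots with Ppp1r1b, a gene of the abundant spiny neurons, were 100% in all 4 sets. Before thinning, a single striatal spot held at most 15, 9, 11 and 12 Chat counts. The variance of thinned Chat counts over striatal spots was 2.09, 1.61, 1.64 and 1.795 times the mean, where counting alone gives 1 and the median gene gave 1.02 to 1.05. Between 97.7% and 99.1% of genes had a lower value. Another random thinning of the same counts gave 2.03, 1.73, 1.77 and 2.38 for Chat. In the first thinning Slc18a3 was at 1.69 to 2.35 and Ache at 1.42 to 1.88. Slc5a7 was at 1.83 and 1.43 in sets 1 and 3, but at 1.04 and 1.25 in sets 2 and 4, where its counts are fewest. Ngfr was at 0.975 to 0.979 in sets 1 to 3 and at 1.96 in set 4.

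Spots with Chat also held the other genes of the trio. In set 1, the 188 striatal spots with a Chat count had 37.8 CPM of Slc18a3, against 6.31 CPM in the 389 without, a ratio of 5.99 (4.86 to 7.43). The same ratio was 4.24, 3.56 and 6.64 in sets 2 to 4. For Slc5a7 it was 7.03, 5.90, 3.88 and 13.7, the last from few counts (4.86 to 47.6). Ache was 1.93 to 2.76-fold higher in spots with Chat. Spots with Chat were also deeper in sets 1, 3 and 4, with a median in set 1 of 51031 counts against 46057, and the part of depth was not tested.

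The striatal spots in the upper 10% of a set by summed trio level, 58, 62, 73 and 42 spots, were then set against the remaining striatal spots. The trio chose these spots, so its own levels are a description: they held 60.2%, 49.6%, 49.3% and 67.6% of the striatal trio counts. Ache, which did not take part in the choice, was at 156.5 against 45.3 CPM in set 1, 159.8 against 61.6 CPM in set 2, 127.8 against 42.6 CPM in set 3 and 189.6 against 50.3 CPM in set 4. This is 3.45, 2.59, 3.003 and 3.77-fold higher, and the lowest bound of the 4 intervals is 2.30. Ngfr stood at 1.04 against 1.09 CPM, 1.78 against 1.28 CPM and 1.23 against 0.781 CPM in sets 1 to 3, which is within counting error. These values rest on 3, 4 and 4 Ngfr counts in the high-trio spots. The intervals of the ratio were wide, at 0.185 to 3.08, 0.35 to 4.01 and 0.394 to 4.67. They cannot decide whether Ngfr was higher or lower there. In set 4 Ngfr was at 17.0 against 2.49 CPM (3.46 to 13.2-fold), from 18 counts in 42 spots.

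Of the 25 companion genes, 8 were at least 2-fold higher in high-trio striatal spots in all 4 sets, against 0.417% of 13177 genes tested without the trio. The 13177 genes had a mean of at least 1 CPM, while the 25 companions were not filtered, so the 2 shares are not fully alike. The 8 include Slc18a2, which reached that mean only through the high-trio spots. Slc17a8 was at 70.5, 75.9, 52.0 and 71.7 CPM in these spots of sets 1 to 4, against 5.48, 12.1, 8.11 and 8.02 CPM in the others. Lhx8, the homeobox factor needed for the cholinergic fate in the ventral forebrain, was 5.63, 2.63, 4.18 and 5.61-fold higher.

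Among receptors, Chrm2 was 3.72 to 5.19-fold and Tacr1 3.77 to 5.39-fold higher in the high-trio spots. Ecel1, a membrane metalloprotease gene, was 5.46 to 10.9-fold higher, Acly 2.56 to 3.71-fold and Slc25a1 2.03 to 2.41-fold. Slc18a2 is counted among the 8, at 3.46 to 9.79-fold, but had only 4 to 17 counts in the high spots and was within counting error in set 2. It was at 0.513 to 0.930 CPM in the other striatal spots, so it reached a mean of 1 CPM only through the high-trio spots, and its count supports nothing. Prima1 was 1.5 to 1.77-fold higher.

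Of the other companions, none was 2-fold higher or lower in all 4 sets. Slc17a7 was at 0.863, 0.588, 0.689 and 0.221 of the other striatal spots in sets 1 to 4, lower beyond counting error in sets 2 to 4. Gpr149 was lower in set 2 (0.382, interval 0.163 to 0.769) and within counting error in the other sets. Isl1 was 1.53, 1.21, 1.37 and 2.115-fold higher, within counting error in set 2. Gbx1, with 1 to 6 counts in the high spots, was beyond counting error in set 2 alone. Chka, Chkb, Bche, Slc44a2 and Colq were within counting error in all 4 sets. The neurotrophin receptors Ntrk2 and Ntrk3 lay at 0.922 to 0.976 and 0.882 to 1.02, lower beyond counting error in 3 sets and 2 sets. Slc44a1 was lower in 2 sets, and Sort1, Sema3a, Slc32a1 and Slc17a6 in 1 each. The median ratio was 0.999 over the companions and 0.998 over all genes tested.

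**Figure D3:**
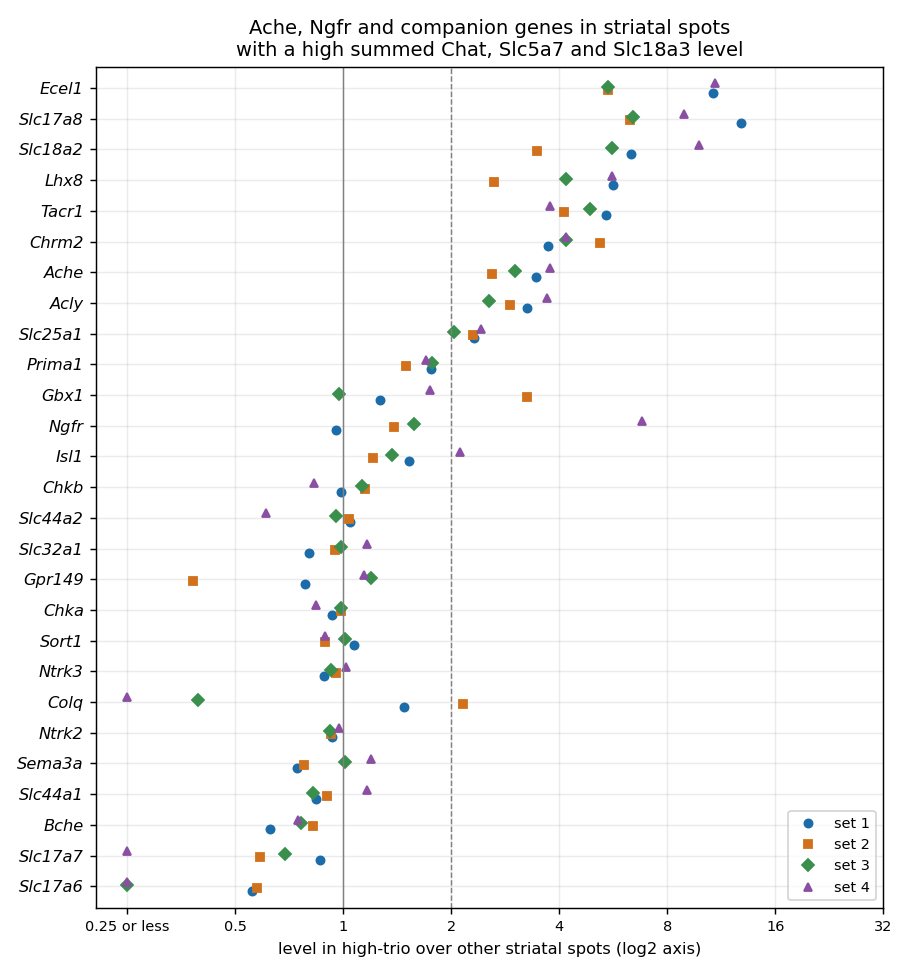
Level of Ache, Ngfr and 25 companion genes in striatal spots in the upper 10% by summed Chat, Slc5a7 and Slc18a3 level, as a ratio to the other striatal spots of the same set (log2 axis, 1 point per barcode set, values at or below 0.25 drawn at 0.25; the dashed line is 2-fold). Ecel1, Slc17a8, Slc18a2, Lhx8, Tacr1, Chrm2, Ache, Acly and Slc25a1 lie beyond 2-fold in all 4 sets, whereas Ngfr does so in set 4 alone. Slc18a2 was within counting error in set 2 and reached a mean of 1 CPM only through the high-trio spots. Ngfr had 3, 4 and 4 counts in the high-trio spots of sets 1 to 3.

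In all, 55 genes were at least 2-fold higher in all sets, Ache and the 8 companions among them. The highest by median ratio was Drd5, a dopamine receptor gene of the class coupled to cAMP production, at 4.67 to 16.8-fold. Only Rtn4rl2 was 2-fold lower, at 0.331 to 0.472 of the other spots, which is 0.00759% of the genes tested. Drd5 and Rtn4rl2 are named after their values were seen. Of the 55 genes, Slc18a2 and several others of low level reached a mean of 1 CPM only through the high-trio spots. The share of 0.417% includes these genes.

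Genes whose level followed the trio from spot to spot were ranked next. Within each set, the correlation over striatal spots with the trio sum was averaged over the 4 sets for 13126 genes. Ecel1 led (mean r = 0.74, range 0.69 to 0.82), followed among the genes ranked by Acly (0.64), Slc17a8 (0.63), Cpne4 (0.58), Ache (0.53), Qrfprl (0.51), Tacr1 (0.49), Zic1 (0.48), Tpbgl (0.47) and Elavl2 (0.45). Ngfr was at rank 493 with a mean r of 0.07, and the median gene at 0.00151. Zic1 encodes a transcription factor of ventral forebrain progenitors, and Elavl2 a neuronal RNA-binding protein.

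In the basal forebrain marker spots Ngfr took the second place. Over 514 spots and 13599 genes the highest were Acly (0.84), Ngfr (0.83), Prima1 (0.79), Ecel1 (0.78), Sncg (0.71), Slc25a1 (0.69), Sphkap (0.68), Rab3b (0.63), Sv2c (0.57) and Uchl1 (0.57), while Ache was at rank 15 (0.53). The pairwise correlation of Chat with Ngfr was 0.72 to 0.80 over sets in these spots and -0.02 to 0.19 in the striatal area. That of Chat with Ache was 0.44 to 0.53 and 0.43 to 0.51. Ngfr had only 25 to 41 counts per set in the striatal area, which limits its correlations there. Spots share a section and differ in depth and cell makeup, so these are descriptions without a test.

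Slc5a7 parted from Chat and Slc18a3 between sets, and did so in every area. In the striatal area there were 0.740, 0.172, 0.905 and 0.163 Slc5a7 counts per Chat count in sets 1 to 4. The intervals of sets 1 and 3 were 0.639 to 0.855 and 0.790 to 1.03, and those of sets 2 and 4 were 0.133 to 0.221 and 0.0988 to 0.257. In the marker spots the ratio was 1.11, 0.286, 0.981 and 0.239, and in all remaining spots 1.15, 0.357, 1.06 and 0.475. The intervals of sets 2 and 4 overlap each other, and those of sets 1 and 3 do not reach those of sets 2 and 4, in each of the 3 areas. Probes differ between genes, so such a ratio has no absolute scale, but it can be set side by side between sets and areas.

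Slc18a3 per Chat count differed less between sets. It gave 1.12, 1.09, 1.2 and 0.941 counts per Chat count in the striatal area and 1.91, 1.14, 1.35 and 1.03 in the marker spots, where the interval of set 1 (1.65 to 2.23) lay above those of the other sets. In all remaining spots it gave 1.36, 1.34, 1.43 and 1.31. In each area sets 1 and 3 were above sets 2 and 4, as for Slc5a7, but in the striatal area and all remaining spots the 4 intervals overlap. The Slc5a7 level itself was 6.47-fold higher in set 3 than in set 4 in the striatal area (4.22 to 10.4), where Chat differed by 1.17-fold (0.960 to 1.42). Only 0.282% of 13132 genes lay further apart between these sets there, and 8.83% were at least 2-fold apart. For sets 1 and 2 the Slc5a7 ratio was 3.36 (2.60 to 4.38), with 1.36% of genes further apart and 8.38% at least 2-fold apart. It was 5.34 for sets 1 and 4 (3.47 to 8.64) and 0.246 for sets 2 and 3 (0.189 to 0.316), where 10.4% and 6.6% of genes were at least 2-fold apart. Sets 1 and 3 were less than 2-fold apart, at 0.825 (0.712 to 0.956), while 1.52% of genes were at least 2-fold apart. Sets 2 and 4 were within counting error, at 1.59 (0.977 to 2.69), with 2.6% of genes at least 2-fold apart.

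Other values moved between the same sets. Sets 2 and 4 had the lowest median counts per spot and sets 1 and 3 the highest. The striatal spots of sets 2 and 4 came mainly from clusters 5 and 20 rather than cluster 0. Celsr3 was also higher over whole sections in sets 2 and 4, at 46.8 and 47.2 CPM, than in sets 1 and 3, at 31.7 and 26.0 CPM. Within cluster 0 alone, Slc5a7 gave 0.733 counts per Chat count in set 1, 0.4 in set 2 (0.152 to 0.948, from 8 counts in 27 spots), 0.912 in set 3 and 0.0870 in set 4 (0.00994 to 0.352, from 2 counts in 63 spots). The interval of set 2 overlaps those of sets 1 and 3 there. Within cluster 5 the ratio was 0.933 in set 1 (0.417 to 2.07, from 18 spots) and 0.161 in set 2 (0.122 to 0.209). The part of depth, section or genotype in the Slc5a7 difference was not tested, and with the sets tied to no mouse it cannot be told apart.

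**Figure D4:**
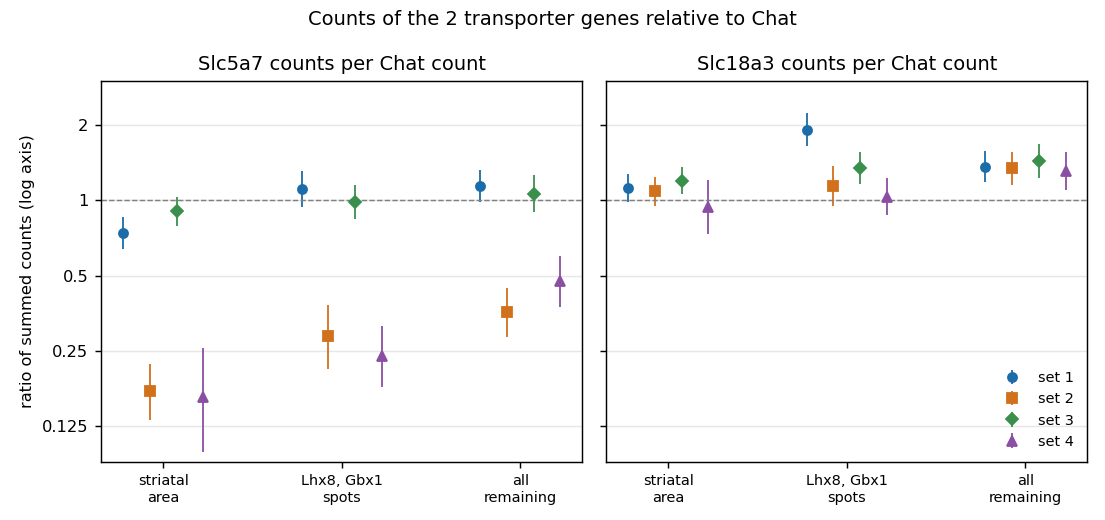
Summed counts of Slc5a7 (left) and Slc18a3 (right) per Chat count (log axis) in the striatal area, the basal forebrain marker spots and all remaining spots; each point is 1 barcode set and each bar an exact 95% interval. For Slc5a7 sets 2 and 4 lie at 0.163 to 0.475 and sets 1 and 3 at 0.740 to 1.15, whereas Slc18a3 stays between 0.941 and 1.91 in all sets.

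Ngfr split the sets as Slc5a7 did but in the reverse direction, with sets 2 and 4 above sets 1 and 3 in each area. In the marker spots it was at 124.2 and 243.5 CPM in sets 2 and 4 and at 50.8 and 96.5 CPM in sets 1 and 3. In the striatal area Ngfr was 3.99 CPM in set 4 and 0.830 to 1.33 CPM in the other sets, where the intervals of sets 1 to 3 overlap. Its ratio of set 3 to set 4 there was 0.208 (0.121 to 0.351), with 0.503% of genes further apart. Of the 41 striatal Ngfr counts of set 4, 20 came from its 63 spots of cluster 0, at 15.2 CPM (9.31 to 23.5), whereas its 349 spots of cluster 20 were at 2.15 CPM (1.296 to 3.36). In sets 1 and 3 Ngfr in cluster 0 was at 1.08 and 0.814 CPM, and set 2 had 1 count in 27 spots, where 3 counts would be 3.55 CPM. In all remaining spots it was at 2.43, 6.96, 3.05 and 8.06 CPM. Markers of Schwann and peripheral cells, which can carry Ngfr, were low: over whole sections Prx lay at 0.664 to 1.39 CPM, Pmp2 at 0.0969 to 0.551 CPM and Foxd3 at 0.229 to 1.13 CPM, each highest in set 4. Sox10, which oligodendrocytes also express, was at 26.0 to 59.8 CPM in the striatal area and 51.8 to 143.3 CPM in the marker spots. The part of these cells in the Ngfr levels was not tested. Nor was the part of depth, section or genotype, and with the sets tied to no mouse it cannot be told apart.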

How the data were processed

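Gene expression was measured with 10x Visium CytAssist FFPE, version 2, in brain sections of 4 mice. The deposited table holds raw counts per gene and spot. Space Ranger and Seurat are named in the submitters' processing notes, while their versions, the genome build and the probe set were not given in the sources used here. Totals were 90752475 to 174761560 counts per barcode set.

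Spots with at least 500 counts were kept, which removed 1 of 12602. Counts were scaled to 10000 per spot, log-transformed and centred per gene within each set, and 2000 variable genes without the members and companion genes gave 30 components, 15 neighbours and Leiden clusters at a resolution of 0.8 (leidenalg 0.10.2, igraph 0.11.9, scikit-learn 1.9.0, Python 3.11.15). Areas followed fixed marker rules. Counts were summed per area and set, and given as CPM with exact Poisson intervals; ratios have conditional binomial and shares Clopper-Pearson intervals. Genes whose mean reached 1 CPM were compared, and folds are ratios of CPM. As alternatives, levels were rescaled by the TMM and RLE methods of edgeR 4.0.16. Spots were thinned to 20000 counts where shares are compared. Doublets were not called, since a spot holds several cells.

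None of the 12602 spot columns could be assigned to a mouse, so no test between groups was made. The named genes are the 5 members, the companion genes, the 10 genes most correlated with the trio in each area and the 5 most like each of Ache and Ngfr over cluster sums. Genes from the marker lists (Ppp1r1b, Prx, Pmp2, Foxd3, Sox10) and genes that lead clusters are named beside them, and Drd5 and Rtn4rl2 were named after their values were seen. A few genes are not reported here and were left out of the marker rules, companion list and rankings. The basal forebrain marker spots were therefore chosen by Lhx8 and Gbx1, a change from the planned rule made after the data were seen. The members and lists were chosen with earlier results of these data known. The scripts were tested on simulated data.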

Additional observations from a re-analysis of the deposited data

How the results depend on the processing

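The log2 ratio of the trio in the striatal area to all other spots was 1.49, 1.52, 1.67 and 0.79 in sets 1 to 4. It stayed above 0 under all 44 alternative values, between 0.65 and 1.85, and 33 of them lay within the counting interval of the main value. It was 1.39 in set 1 with spots of at least 2000 counts, 1.56 in set 3 with set 1 left out of the clustering, 1.39 in set 1 without set 2, 1.36 in set 1 without set 3, and 1.48 in set 3 with the area taken by marker score. TMM scaling gave 1.67 and 1.85 in sets 1 and 3, and RLE scaling 1.71, 1.71, 1.85 and 1.01 in sets 1 to 4, and within a set this shift is the same for every gene.

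For the basal forebrain marker spots the ratio of the trio was 3.75, 2.85, 3.95 and 4.26. Under 4 alternatives 1 cluster of 306 to 319 spots met the marker rule for the basal forebrain area, and the ratios of the trio and Ngfr turned below 0. That cluster, led by Gbx2, Calb2, Tcf7l2 and Lhx9, lay to at least 95.2% inside the thalamic cluster 9. At a clustering resolution of 1.2, the log2 ratios were in set 1 -3.53 for the trio, -4.87 for Chat, -2.49 for Slc5a7, -4.03 for Slc18a3 and -4.17 for Ngfr. They were in set 4 -2.25 for the trio, -2.73 for Chat, -0.9968 for Slc5a7, -2.42 for Slc18a3 and -3.69 for Ngfr. With spots of at least 1 count kept, the log2 ratios were in set 1 -3.57 for the trio, -5.82 for Chat, -2.44 for Slc5a7, -3.98 for Slc18a3 and -4.12 for Ngfr. They were in set 4 -2.29 for the trio, -2.72 for Chat, -1.19 for Slc5a7, -2.42 for Slc18a3 and -3.69 for Ngfr. With set 2 left out of the clustering, the log2 ratios were in set 1 -3.75 for the trio, -5.81 for Chat, -2.42 for Slc5a7, -4.71 for Slc18a3 and -3.52 for Ngfr. They were in set 4 -1.19 for the trio, -1.21 for Chat, -0.63 for Slc5a7, -1.37 for Slc18a3 and -3.67 for Ngfr. The trio in set 3 was then at -1.58, from only 9 spots. With set 3 left out of it, the log2 ratios were in set 1 -3.48 for the trio, -5.82 for Chat, -2.29 for Slc5a7, -3.98 for Slc18a3 and -3.53 for Ngfr. They were in set 4 -1.19 for the trio, -1.21 for Chat, -0.63 for Slc5a7, -1.37 for Slc18a3 and -3.67 for Ngfr. With the area taken by marker score, which drew in 6664 spots, 4042 of them near the threshold, the trio was at 0.54, 2.05, 0.41 and 1.92 in sets 1 to 4. The next 3 choices were added after the data were seen. The upper 2% of spots by Lhx8 and Gbx1 gave 4.02, 3.003, 4.42 and 4.38, the upper 10% 3.57, 2.49, 3.62 and 3.95, and clusters 3 and 6 3.34, 2.90, 3.33 and 3.56.

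Slc5a7 counts per Chat count in the striatal area stayed within the counting interval of the main value under all 36 alternative values. The count of companion genes 2-fold higher in high-trio spots was 6 to 8 under 7 alternatives, and 8 in the main analysis with Slc18a2 included. The alternatives that left out a barcode set could not lower this count, because fewer sets had to pass. No share over all genes was computed under the alternatives. No paired analysis was possible because the barcode sets cannot be tied to the mice. For the same reason the planned genotype test and its alternatives (DESeq2, no filter on low counts, a replicate block, leaving out each replicate) were not run. Depth limits the low genes most: set 4 has 22 striatal Slc5a7 counts.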
